A study of Homo sapiens with 3 samples.

Results

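Interferon-stimulated genes, the genes that cells switch on when interferon binds its receptors, were read in 3 stable lines of PANC-1, a human pancreatic ductal adenocarcinoma cell line. A list of 48 such genes was set by name, and 47 of them had a probe set, the group of short probes that reads a transcript, annotated with that gene alone, out of 19775 genes read in all. STAT2 had none under this rule and is not analysed here. Where a gene had several, the brightest on average stood for it in every count, and dimmer ones are described for some genes where their direction or size differed.

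The lines expressed wild-type JMJD3, a mutant JMJD3 or, as control, carried an empty MSCV retroviral vector. No treatment is recorded for any of them, interferon included, and the labels do not name the vector behind the JMJD3 lines. Each line was read on 1 Affymetrix array from biotin-labelled total RNA. The labels do not give the mutation, or whether a line is a clone or a pool. JMJD3 is the protein of KDM6B, an enzyme that removes the repressive trimethyl mark from lysine 27 of histone H3.

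Type I interferons act through a receptor with JAK1 and TYK2 kinases, and the signal reaches a complex that holds STAT2 and IRF9. It binds the interferon-stimulated response element, a repeated GAAA motif in the promoters of many antiviral genes, while interferon gamma acts mainly at another motif, the gamma-activated site. The products block virus entry, bind or degrade viral RNA, attach the ubiquitin-like protein ISG15 to other proteins, and load viral peptides on class I molecules. In carcinoma cells part of this programme can be expressed without infection.

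With 1 array a line there was no spread between replicates, no test was run, and every difference below describes these arrays only. Values are log2 signals, and signals at or under log2 5.48, the pooled median of all arrays, were raised to that floor before subtraction because dim signals carry little information. A gene over the floor in either array of a comparison counts as measured there. Differences are floored log2 signals subtracted from each other, and the counts of higher and lower genes start at 2-fold, which is a difference of 1. Where an array lay under the floor, its fold is a lower bound.

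The arrays had median log2 signals of 5.48 with wild-type JMJD3, 5.49 with mutant JMJD3 and 5.50 in control. All 5 epithelial keratin and adhesion markers were over the floor in every array, and all 5 leukocyte markers that were read lay under it in every array. Over it were also 2 of 4 fibroblast markers (COL1A1 and PDGFRB), 1 of 3 plasmacytoid dendritic cell markers (IL3RA) and 1 of 3 endothelial markers (PECAM1), in all arrays. In a bulk sample such as these, fewer expressing cells and less RNA per cell cannot be told apart. KDM6B, the introduced gene, has 5 probe sets. At one it was higher than control by 1.20 with wild-type and 0.92 with mutant JMJD3 on the log2 scale, at a second by 0.73 and 0.49, and at the other 3 it lay within 0.11 of control. An exact repeat of a value between arrays was common at low signal. Of the probe sets with a control signal between log2 6 and 7, 19.9% held the identical value in the wild-type array and 20.9% in the mutant array, against 4.1% and 5.3% of those over log2 10. Among measured members the value was repeated in 6 of 30 for wild-type and control and in 3 of 32 for mutant and control. A difference of 0.00 therefore does not show equal transcript levels.

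The promoter sequences below belong to the members on which the comparisons turn, with a bright member and a dim one beside them. IFITM1, HERC5 and PSMB9 differed with mutant JMJD3, IFI35 differed with wild-type JMJD3, and TAP1 is the neighbour of PSMB9. ISG15 was over the floor in every array and IFI44L was under it in every array. Each line gives the 200 bases before the transcript start from RefSeq on GRCh38.p14, and capitals mark 2 motifs searched on both strands. The first is the response element core, GAAANN followed directly by GAAA, which shows as repeated TTTC when it lies on the other strand, and the second is the gamma-activated site TTCNNNGAA, which reads the same on both strands. For TAP1, which has 2 annotated starts, the start with response element cores is shown.
IFITM1, chr11:313840-314039, + strand: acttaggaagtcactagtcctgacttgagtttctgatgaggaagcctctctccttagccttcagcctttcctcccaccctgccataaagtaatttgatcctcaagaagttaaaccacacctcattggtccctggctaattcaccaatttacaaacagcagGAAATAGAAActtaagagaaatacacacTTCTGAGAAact
HERC5, chr4:88456919-88457118, + strand: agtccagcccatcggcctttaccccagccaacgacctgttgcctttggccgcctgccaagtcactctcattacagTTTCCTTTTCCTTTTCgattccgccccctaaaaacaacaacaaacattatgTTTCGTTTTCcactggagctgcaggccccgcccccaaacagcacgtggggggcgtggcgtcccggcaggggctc
PSMB9, chr6:32853992-32854191, + strand: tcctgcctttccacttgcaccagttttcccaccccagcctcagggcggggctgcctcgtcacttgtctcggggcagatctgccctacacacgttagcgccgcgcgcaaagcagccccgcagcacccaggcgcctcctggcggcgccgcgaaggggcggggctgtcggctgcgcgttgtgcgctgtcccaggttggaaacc
TAP1, chr6:32853705-32853904, - strand: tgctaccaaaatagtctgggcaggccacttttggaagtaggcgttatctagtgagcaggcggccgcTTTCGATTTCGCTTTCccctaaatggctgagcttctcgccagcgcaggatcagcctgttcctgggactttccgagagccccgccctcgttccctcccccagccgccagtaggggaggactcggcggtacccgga
IFI35, chr17:43006584-43006783, + strand: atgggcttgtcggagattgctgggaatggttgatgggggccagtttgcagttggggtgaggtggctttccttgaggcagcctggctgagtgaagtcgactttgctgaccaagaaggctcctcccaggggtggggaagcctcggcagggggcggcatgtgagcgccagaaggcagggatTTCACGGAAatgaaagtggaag
ISG15, chr1:1013297-1013496, + strand: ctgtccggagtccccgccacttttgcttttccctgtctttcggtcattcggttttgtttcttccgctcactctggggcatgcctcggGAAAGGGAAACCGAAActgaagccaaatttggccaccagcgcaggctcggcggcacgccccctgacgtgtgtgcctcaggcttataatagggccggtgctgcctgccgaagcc
IFI44L, chr1:78620248-78620447, + strand: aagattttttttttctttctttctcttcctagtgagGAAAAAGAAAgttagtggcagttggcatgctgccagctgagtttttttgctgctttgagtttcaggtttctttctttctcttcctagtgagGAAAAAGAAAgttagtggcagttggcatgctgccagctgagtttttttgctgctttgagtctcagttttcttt

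Of the 38 members with an entry in the promoter table, 26 (68.4%) held the response element core in at least 1 of their windows, which run from 250 bases before to 50 after a start. Among all 27305 genes listed there, 4.4% did. The gamma-activated site was found for 13 of the 38 members (34.2%) and for 9.4% of all genes. Overlapping copies were counted separately, as in HERC5, whose 3 cores begin 125, 119 and 74 bases before the start with the first pair overlapping. IFITM1 held 1 core 40 bases before the start and another that crosses it, and so is not capitalised. IFI35 and PSMB9 had none in their windows, and IFI35 held a gamma-activated site 22 bases before its start. The TAP1 cores, 134 and 128 bases before the TAP1 start, lie between that start and the PSMB9 start. They fall outside the PSMB9 window, so its empty window does not show that PSMB9 has no core nearby. The core was present for 18 of 25 members that were over the floor in some array (72.0%) and for 8 of 12 that were under it in all (66.7%). A match is a run of letters and does not show that a factor binds there.

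Most of the members either stayed near control or were not seen at all. Over the floor lay 30 of 47 members with wild-type JMJD3, 31 with mutant JMJD3 and 29 in control, or 63.8%, 66.0% and 61.7%, beside 63.6%, 63.3% and 62.9% of all genes. In all arrays 28 members were over the floor and 15 were at or under it, while IFIT2, MX2, DHX58 and IFI27 were over it in some arrays. Of the 32 members measured somewhere, 18 had a range under 0.5 on the log2 scale over the 3 arrays and 4 had a range of 1 or more. These 4 were IFITM1, HERC5, PSMB9 and IFI35. The highest signal was in the mutant array for 14 of the 32, in the wild-type array for 9 and in control for 6. A tie at the top was seen for 3. Ranges and top arrays were not counted over all genes, so whether the members are unusual in them was not tested. Pair by pair, the share of all measured genes within 0.5 was 76.3% for wild-type against control and 82.8% for mutant against control. It was 66.2% for wild-type against mutant. A range spans all 3 arrays, so these shares are not the same measure.

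**Figure D1:**
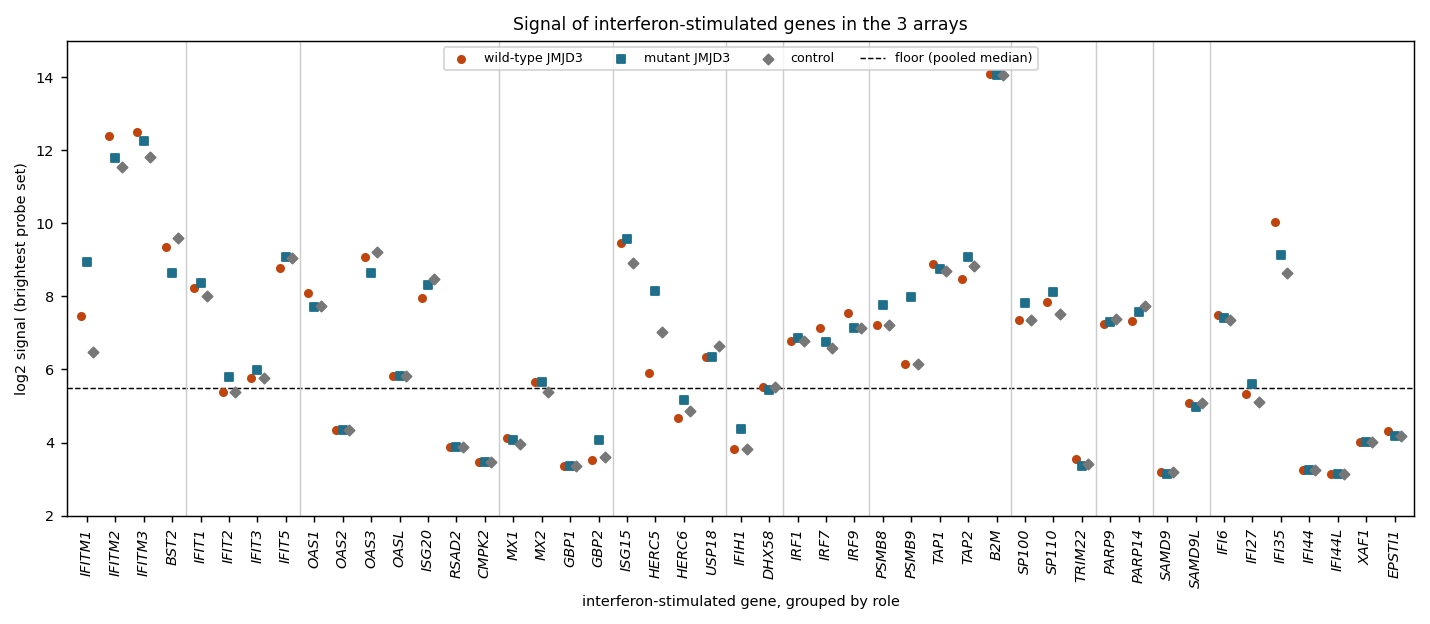
Log2 signal of the brightest probe set (vertical axis) of each of the 47 members read, grouped by role, in the wild-type JMJD3 (circles), mutant JMJD3 (squares) and control (diamonds) arrays, 1 array each; the dashed line is the floor of log2 5.48. IFITM1, HERC5, PSMB9 and IFI35 are spread widest, and 15 members lie at or under the floor in every array.

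With mutant JMJD3 3 of 32 measured members (9.38%) were higher than control by 2-fold or more, beside 2.98% of all measured genes. These were IFITM1, PSMB9 and HERC5, so that the share rests on 3 genes. None was lower by 2-fold, beside 0.535% of all measured genes. Differences were above 0 for 21 members (65.6%) and below 0 for 8, while 45.9% of all measured genes were above 0. The median difference was 0.15 over the members and 0.00 over all measured genes.

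With wild-type JMJD3 1 of 30 measured members (3.33%), IFI35, was higher than control by 2-fold, beside 0.953% of all measured genes. HERC5 was lower by 2-fold, again 3.33%, beside 1.31% of all. Differences were above 0 for 15 members (50%) and below 0 for 9, and 54.4% of all measured genes were above 0. The members' median was 0.01 and that of all measured genes 0.05. Each of these shares is a single gene, and the members as a whole lay around control.

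Between the JMJD3 arrays no member was 2-fold higher with wild-type than with mutant, beside 2.61% of all measured genes. Lower by 2-fold were 3 of 32 (9.38%), namely HERC5, PSMB9 and IFITM1, beside 6.2% of all. The members' median was -0.07 and that of all measured genes 0.00. The 2 comparisons with control share the control array, and the third shares an array with each, so the counts are not separate results.

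**Figure D2:**
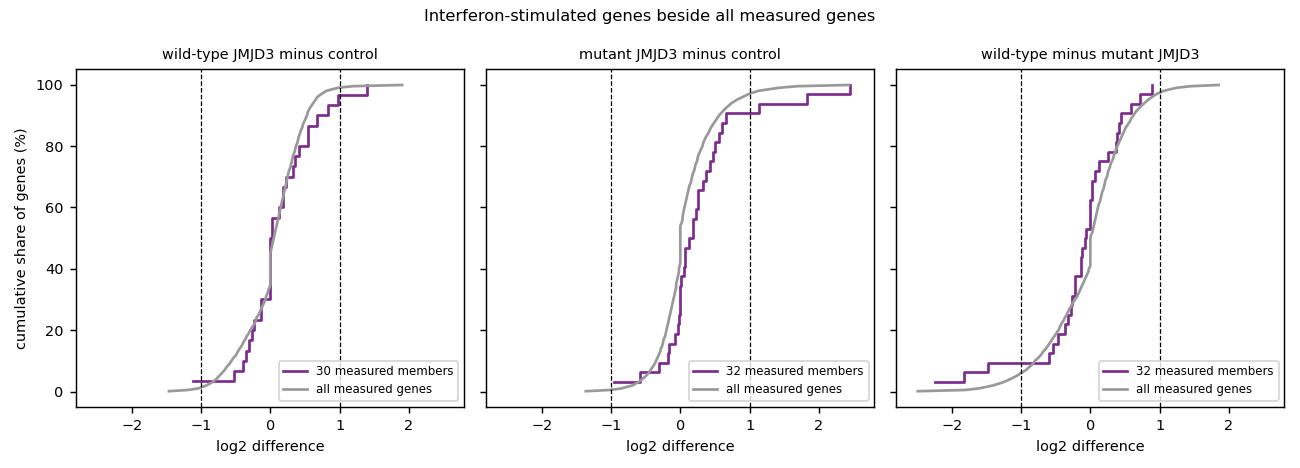
Cumulative share of genes (vertical axis, %) against the log2 difference (horizontal axis) for the measured members (purple) and all measured genes (grey) in the 3 comparisons; dashed lines mark 2-fold. In the mutant comparison the members' curve lies to the right of the grey one over most of its length, with medians of 0.15 and 0.00, while in the wild-type comparison the curves cross near 0, with medians of 0.01 and 0.05.

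IFITM1, IFITM2 and IFITM3 encode small membrane proteins that block the fusion of entering viruses with the cell. IFITM1 read log2 7.46 with wild-type JMJD3, 8.93 with mutant JMJD3 and 6.48 in control. All were over the floor, with mutant highest and control lowest. Mutant exceeded control 5.46-fold (2.45 on the log2 scale), the 12th largest upward difference among 12707 measured genes. Wild-type exceeded control 1.97-fold (0.98), just under the threshold, and was 2.77-fold lower than mutant (-1.47). This gene rests on 1 probe set, whose ending marks probes shared with other transcripts, and another probe set is annotated with both IFITM1 and IFITM2 and was given to neither.

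IFITM2 and IFITM3 went with IFITM1 against control but had another order between the JMJD3 arrays. IFITM2 read 12.38 with wild-type JMJD3, 11.80 with mutant JMJD3 and 11.55 in control, which is 1.78-fold over control for wild-type and 1.19-fold for mutant. IFITM3 read 12.51, 12.26 and 11.83 in the same order of arrays, 1.60-fold and 1.35-fold over control. In both the wild-type array was highest, whereas in IFITM1 the mutant array was. Their probe sets share probes with related transcripts, so how the signal divides among these close relatives is uncertain.

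BST2, or tetherin, which holds budding virus particles at the cell surface, went the other way. It read 9.35 with wild-type JMJD3, 8.63 with mutant JMJD3 and 9.59 in control. Mutant was 1.95-fold lower than control (-0.96), the member nearest to the threshold on the lower side, and wild-type was 1.18-fold lower. Among the 4 membrane restriction factors, mutant JMJD3 thus had IFITM1 as the highest and BST2 as the lowest of all measured members. With quantile normalization BST2 reached 2-fold (-1.0).

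ISG15 and its conjugation enzymes differed among themselves. HERC5, the main ligase that attaches ISG15 to newly made proteins in human cells, read 5.91 with wild-type JMJD3, 8.15 with mutant JMJD3 and 7.02 in control. The JMJD3 arrays stood on opposite sides of control, with mutant 2.19-fold higher (1.13) and wild-type 2.16-fold lower (-1.11). Set against each other, wild-type was 4.72-fold lower than mutant (-2.24), the 23rd largest downward difference among 12829 measured genes. HERC5 has 1 probe set, without shared probes, and its difference from control was under 2-fold when an offset replaced the floor (0.91 for mutant, -0.74 for wild-type) and, for wild-type, with a floor at the 60th percentile (-0.85).

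ISG15 itself read 9.45 with wild-type JMJD3, 9.57 with mutant JMJD3 and 8.91 in control. Both JMJD3 arrays were higher, 1.45-fold and 1.58-fold, and within 0.12 of each other. USP18, which removes ISG15 and also dampens the type I receptor, read 6.34 in both JMJD3 arrays and 6.65 in control (-0.31). HERC6, a relative of HERC5, was under the floor in every array, with 4.67, 5.17 and 4.85 in wild-type, mutant and control. With mutant JMJD3, ISG15 and its ligase HERC5 were thus above control and USP18 below it, while with wild-type JMJD3 ISG15 was above control and HERC5 and USP18 were below it.

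Antigen presentation contributed PSMB9. This gene encodes an inducible catalytic subunit that replaces a constitutive one when the immunoproteasome forms. It read 6.15 with wild-type JMJD3, 7.98 with mutant JMJD3 and 6.15 in control. Mutant was 3.56-fold higher than control (1.83), the 48th largest upward difference of 12707, and wild-type was lower than mutant by the same amount (-1.83). Wild-type and control held an identical value, in the range of signals where such repeats were common. Its 1 probe set has no shared probes.

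The other inducible subunit of the list went the same way by less. PSMB8 read 7.23 with wild-type JMJD3, 7.77 with mutant JMJD3 and 7.21 in control, 1.47-fold higher with mutant than in control. TAP1, a chain of the transporter that carries peptides to class I molecules, is transcribed in the opposite direction from PSMB9, and the annotated starts shown above lie 488 bases apart. It read 8.89, 8.76 and 8.70 in wild-type, mutant and control, so that mutant was 1.04-fold over control, against 3.56-fold for PSMB9.

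TAP2, the partner of TAP1 in the transporter, had probe sets that disagreed. Its brightest read 8.49 with wild-type JMJD3, 9.09 with mutant JMJD3 and 8.84 in control. The next brightest read 7.13, 6.65 and 7.10, so that mutant was the highest array in the one and the lowest in the other. B2M, the light chain of class I molecules, read 14.08, 14.05 and 14.05 near the top of the signal range, and its second probe set lay within 0.01 of control in both JMJD3 arrays. Its dimmest probe set read 5.67, 6.60 and 5.79, highest with mutant.

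IFI35, a cytoplasmic interferon-induced protein that pairs with NMI, was the member with the largest upward difference for wild-type JMJD3. It read 10.03 with wild-type JMJD3, 9.14 with mutant JMJD3 and 8.64 in control. Wild-type was 2.62-fold higher than control (1.39), the 37th largest of 12697, and mutant 1.41-fold higher (0.50), while wild-type exceeded mutant 1.85-fold. The gene rests on a single probe set with shared probes, and has no other to set beside it.

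**Figure D3:**
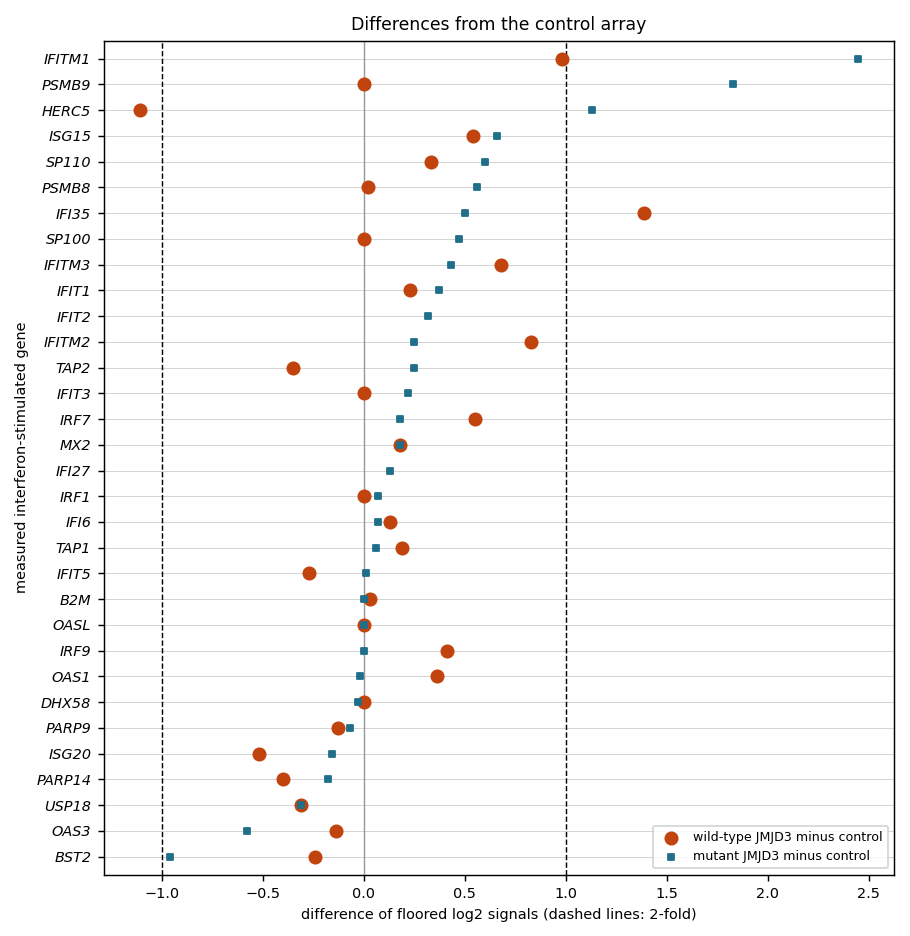
Differences of floored log2 signals from control (horizontal axis) for each of the 32 measured members (rows, ordered by the mutant difference), with circles for wild-type JMJD3 and squares for mutant JMJD3, 1 array each; dashed lines mark 2-fold, and IFIT2 and IFI27 have no circle because they were not measured with wild-type or in control. IFITM1 (2.45), PSMB9 (1.83) and HERC5 (1.13) lie beyond the upper line with mutant, IFI35 (1.39) does with wild-type, and HERC5 (-1.11) lies beyond the lower line with wild-type.

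The transcription factors of the response differed little. IRF9, the DNA-binding partner of STAT2, read 7.54 with wild-type JMJD3, 7.13 with mutant JMJD3 and 7.13 in control. IRF7, which amplifies interferon production, read 7.13, 6.76 and 6.58. Wild-type was highest for both, by 1.33-fold and 1.46-fold over control. IRF1, an interferon gamma target that acts on class I genes, read 6.79, 6.86 and 6.79, while its dimmer probe set was lowest with wild-type (5.62, 6.14 and 5.79). The IRF1 level therefore gave no 2-fold difference at either probe set.

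IFIT1, IFIT2, IFIT3 and IFIT5 encode related proteins of the same interferon-induced family. IFIT1 read 8.24 with wild-type JMJD3, 8.38 with mutant JMJD3 and 8.01 in control. IFIT5 read 8.79, 9.07 and 9.06, and 7.99, 8.45 and 8.17 at its second probe set. IFIT3, at 5.76, 5.98 and 5.76, lay just over the floor, and IFIT2 was over it with mutant alone (5.37, 5.80 and 5.37), though its other probe set was over it in control alone (5.52). The mutant array was highest in all 4 at the brightest probe set, with differences from control of 0.01 to 0.37, all well under 2-fold.

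Among the oligoadenylate synthetases, which make the activator of RNase L, OAS1 read 8.10 with wild-type JMJD3, 7.72 with mutant JMJD3 and 7.74 in control. Its second probe set read 7.05, 7.15 and 6.61, so that the mutant value lay at control in the one and 0.54 over it in the other. OAS3 read 9.07, 8.63 and 9.21 and was 1.49-fold lower with mutant than in control. OASL, a relative without that enzyme activity, was listed at 5.81 in all arrays, and OAS2 at 4.35, under the floor. ISG20, an RNA exonuclease, was lower than control with wild-type JMJD3 in both its probe sets (-0.52 and -0.27).

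Several nuclear and other members were higher with mutant JMJD3 by less than 2-fold. SP110, a nuclear body protein, read 7.85 with wild-type JMJD3, 8.12 with mutant JMJD3 and 7.52 in control, and its next probe set gave 7.62, 8.05 and 7.40. SP100, a main protein of the same bodies, read 7.35, 7.82 and 7.35, and 7.10, 7.72 and 6.76 at its second probe set. For both genes the 2 brightest probe sets put mutant on top. The dimmer probe sets of SP110 lay within 0.05 of control, and those of SP100 were not over the floor.

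PARP9 and PARP14, which take part in ADP-ribosylation, were slightly lower than control at their brightest probe sets. PARP14 read 7.34 with wild-type JMJD3, 7.56 with mutant JMJD3 and 7.74 in control, and PARP9 read 7.25, 7.31 and 7.38. The second probe set of PARP9 went the other way, 0.11 over control with wild-type and 0.29 with mutant. IFI6, an interferon-induced membrane protein, read 7.48, 7.42 and 7.35. IFI27 was over the floor with mutant alone (5.33, 5.61 and 5.12), MX2, a GTPase that blocks nuclear entry of retroviruses, with both JMJD3 arrays (5.66, 5.66 and 5.38), and DHX58, the helicase LGP2, lay within 0.03 of the floor throughout (5.51, 5.45 and 5.51). None of these differed by 2-fold in any comparison.

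The 15 members at or under the floor in all arrays include many of the genes most used as a readout of interferon. MX1, the antiviral GTPase, read 4.12 with wild-type JMJD3, 4.08 with mutant JMJD3 and 3.97 in control. RSAD2 (viperin) was listed at 3.88 in every array, its neighbour CMPK2 at 3.47, IFI44 at 3.26, IFI44L at 3.15, XAF1 at 4.02 and GBP1 at 3.36. IFIH1, the RNA sensor MDA5, read 3.82, 4.37 and 3.82 and GBP2 3.53, 4.08 and 3.59, both highest with mutant but under the floor. EPSTI1, TRIM22, SAMD9, SAMD9L, OAS2 and HERC6 complete the group. Their brightest signals ran from 3.15 to 5.17, none of their 32 probe sets was over the floor in any array, and 7 of the 15 had an identical value in all arrays. A gene at this level was not detectable over the floor here, which does not show that it was silent.

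Where a member had several probe sets, they often differed in direction. Of the 47 members 25 had more than 1. In the mutant comparison 14 further probe sets of 10 members were measured, of which 5 went the same way as the brightest, 4 the opposite way and 5 had a difference of 0 on either side. For wild-type against control the numbers were 4, 5 and 5, and for wild-type against mutant 8, 5 and 1. None of these further probe sets differed by 2-fold. The 4 members with the widest range, IFITM1, HERC5, PSMB9 and IFI35, had no second probe set of their own, so none of their differences has this check.

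The genes that start the response were set beside the members. All 18 interferon genes that were read, alpha, beta, gamma and lambda types among them, lay under the floor in all arrays, with IFNB1 at 3.64 with wild-type JMJD3, 3.61 with mutant JMJD3 and 3.61 in control. All 6 receptor genes were over the floor in all arrays and none differed by 2-fold. Over all measured genes, 0.535% to 6.2% passed 2-fold, depending on comparison and direction. At those shares a list this short, like the short lists below, would often hold no such gene. IFNAR2, a chain of the type I receptor, was the highest over control with wild-type (0.50), and IFNGR2, of the gamma receptor, with mutant (0.41). The dimmer IFNAR2 probe sets gave 0.00 and 0.19 for wild-type against control. Of the kinases and other transducers 4 were read and none differed by 2-fold. TYK2 read 9.31, 8.33 and 8.71 in wild-type, mutant and control, which is 1.97-fold more with wild-type than with mutant (0.98), and JAK2 was lower than control in both JMJD3 arrays (-0.73 and -0.26). STAT3 had the largest difference of these from control with wild-type (0.78), and its other measured probe sets gave 0.46 and 0.57. With mutant it was 0.38 over control at the brightest and gave -0.08 and 0.37 at the others.

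Negative regulators gave no 2-fold difference among 12 measured at their brightest probe sets. PIAS1, an inhibitor of STAT proteins, was lower with wild-type JMJD3, and dimmer probe sets passed 2-fold in part. Its brightest read 8.26 with wild-type JMJD3, 8.70 with mutant JMJD3 and 8.87 in control, and the other 2 gave differences of -1.09 and -0.90 for wild-type against control and -1.13 and -1.01 for wild-type against mutant. All 3 probe sets of PIAS1 were lowest with wild-type. Its relative PIAS3 went the other way, with the list's largest difference for wild-type against control (0.79, and 0.69 with mutant). PIAS4 was 0.68 over control with wild-type at its brightest probe set and 0.04 at its other measured one. PIAS2 was 0.07 over control with wild-type at its brightest and below control at its other measured ones. Of the 12 regulators 8 were above control with wild-type and 4 below, beside 54.4% and 34.2% of all measured genes. SOCS3, a feedback inhibitor of cytokine receptors, read 10.07 with wild-type JMJD3, 10.79 with mutant JMJD3 and 9.84 in control, and was the highest of them with mutant (0.95). Its dimmer measured probe sets gave 0.50 and 0.00 for mutant against control. Of the nucleic acid sensors and adaptors 11 were measured with mutant JMJD3 and 1 was higher than control by 2-fold, beside 2.98% of all measured genes. This was IFI16, a nuclear DNA sensor, at 4.79 with wild-type, 6.88 with mutant and 5.04 in control, so that mutant was at least 2.64-fold higher than either. Its other measured probe set went the same way (0.87). MYD88, an adaptor of Toll-like receptors, was 2.03-fold higher with wild-type than with mutant (10.01 and 8.99).

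Of the other class I presentation genes 14 were measured with mutant JMJD3, 8 of them above control, 4 below and none by 2-fold at the brightest probe set. Over all measured genes 45.9% were above control, 2.98% were higher by 2-fold and 0.535% lower. The list had a median of 0.17 and all measured genes one of 0.00. A dimmer probe set of HLA-E, a gene named after its values were seen, did pass 2-fold, at 8.08 with wild-type JMJD3, 8.82 with mutant JMJD3 and 7.64 in control (1.18 for mutant), where its brightest gave 0.33. CALR, the chaperone calreticulin, was 0.75 over control with wild-type at its brightest probe set and 1.09 and 0.91 at the other 2. HLA-B read 10.49 with wild-type JMJD3, 11.17 with mutant JMJD3 and 10.63 in control, and HLA-C read 10.85, 11.27 and 10.90. NLRC5, the transactivator of class I genes, read 6.64, 7.06 and 6.11. At the brightest probe set mutant was highest for each of these, by 0.54, 0.37 and 0.95 over control. The dimmer probe sets gave 0.13 and 0.28 for HLA-B and 0.00, 0.37 and 0.33 for HLA-C. All probe sets of HLA-B and HLA-C have an ending that marks shared probes. PSMB10, the remaining inducible proteasome subunit, was instead lowest with mutant (8.80, 7.81 and 8.21). TAPBP was also lowest with mutant, at all 3 of its probe sets (9.37, 8.95 and 9.01 at the brightest). PDIA3, a chaperone of the peptide-loading complex, had the largest downward difference (10.52, 9.86 and 10.85; -0.99 with mutant), but its other probe sets gave 0.10 and 0.00. PSMB9 and PSMB10 thus differed from control in opposite directions with mutant JMJD3.

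Among 17 genes that respond to interferon gamma, 9 were under the floor in all arrays. ICAM1, an adhesion molecule that NF-kB also controls, was 2.14-fold higher than control with wild-type JMJD3 (7.52 and 6.42) and 1.92-fold higher with mutant (7.36). Its dimmer measured probe sets were higher too but under 2-fold, by 0.76 and at least 0.25 with wild-type and by 0.87 with mutant. CD274, the gene of PD-L1, read 7.35 with wild-type, 8.40 with mutant and 7.34 in control, 2.08-fold higher with mutant than in control. HLA-DMA was higher in both JMJD3 arrays, by 0.81 and 0.83. No other gene of that list differed by 2-fold from control. That makes 1 of 8 measured with wild-type and 1 of 7 with mutant, beside 0.953% and 2.98% of all measured genes. Each of these counts is a single gene.

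**Figure D4:**
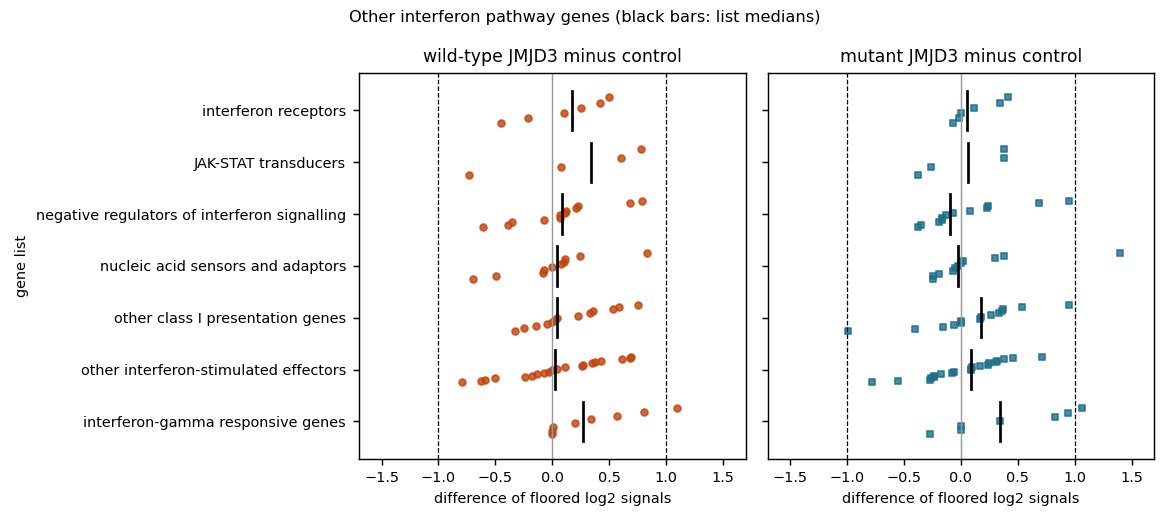
Differences of floored log2 signals from control (horizontal axis) at the brightest probe set of each measured gene of 7 further lists of the interferon pathway, with wild-type JMJD3 on the left and mutant JMJD3 on the right, 1 array each; black bars are list medians and dashed lines mark 2-fold. Only IFI16 and CD274 pass the upper line with mutant and only ICAM1 does with wild-type, and no gene of these lists passes the lower one.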

How the data were processed

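Total RNA of 3 PANC-1 lines was read on 1 Affymetrix array each. The deposited values are log2 signals, for 54613 probe sets. MAS5 is named, per the submitters' processing notes, without settings. Of the deposited probe sets, 21.0% hold an identical value in all 3 arrays, and whether MAS5 alone made these values is uncertain. Any normalization across arrays is of a kind not given in the sources used here. No raw intensities or detection calls were used. The number of arrays limits the precision.

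The platform annotation gave 1 symbol to 41091 probe sets, several to 1801 and none to 11721, and 41037 gene identifiers matched RefSeq (GRCh38.p14). The brightest probe set stood for each of 19775 genes. Differences were taken after flooring at log2 5.48. No test was possible with 1 array a line. Named genes are all members, KDM6B, interferon and receptor genes, and some genes of each pathway list. Those from the lists are mostly genes with large differences, but not every large difference of a list is named. Members, lists and settings were chosen with earlier results of these data known. The 8 alternatives changed scaling, floor and choice of probe set. The calculation was tested on simulated data. Promoters came from RefSeq. The software was matplotlib 3.10.9, pandas 2.3.3, numpy 2.4.6 and Python 3.11.15.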

Additional observations from a re-analysis of the deposited data

How the results depend on the processing

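Of 72 recomputed values, the counts of members 2-fold higher or lower and the medians under 8 alternatives, 65 stayed within 1.5 times the count or 0.1 of the median. With arrays scaled to one median or quantile normalization, 2 members in place of 1 were higher than control with wild-type JMJD3, as IFITM1 reached 1.0 and 1.02; without shared probe sets 0 were, as IFI35 has no other probe set. The count of lower members there was 0 after raising the floor to the 60th percentile or replacing it by an offset, as HERC5 gave -0.85 and -0.74. With quantile normalization 1 member, BST2 (-1.0), was lower than control with mutant JMJD3, and the median of wild-type against mutant was 0.04 in place of -0.07, while that of all genes was 0.09. With mutant JMJD3 the 3 higher members became 2 with the offset (HERC5, 0.91) and without shared probe sets. Wild-type against mutant had 2 lower members without shared probe sets in place of 3. Among values of single members 686 kept their side of 2-fold and moved by at most 1.5-fold, and 10 did not; none past 2-fold changed sign. Over all genes, the offset gave 70 higher and 71 lower genes for wild-type JMJD3 against control (121 and 166 as reported), 202 and 41 for mutant against control (379 and 68), and 208 and 480 for wild-type against mutant (335 and 795). Taking the median over probe sets gave 71 higher with wild-type and 241 with mutant than in control, and 501 lower with wild-type than with mutant. Without shared probe sets 76 genes were higher with wild-type than in control. No paired analysis was possible because each group has 1 array. The array signals carry no replicate error, so differences under 2-fold are values only.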

Other observations

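Further interferon-stimulated effectors, which are not among the 48 members, were counted in the same way. Of 20 measured, none differed by 2-fold in any comparison at the brightest probe set. Over all measured genes 0.953% were 2-fold higher and 1.31% lower with wild-type JMJD3 than in control. With mutant JMJD3 against control the shares were 2.98% and 0.535%, and with wild-type against mutant 2.61% and 6.2%. A count of 0 among 20 is near these shares. The list medians were 0.02 for wild-type JMJD3 against control, 0.09 for mutant JMJD3 against control and 0.09 for wild-type against mutant. Those of all measured genes were 0.05, 0.00 and 0.00. UBE2L6, the enzyme that hands ISG15 to its ligase HERC5, read 5.75 with wild-type JMJD3, 6.19 with mutant JMJD3 and 5.30 in control, so that mutant was at least 1.64-fold higher than control. LY6E read 8.06, 7.54 and 7.37, and wild-type was 1.61-fold over control, the largest upward difference of the list there (0.69). The largest downward one was that of NT5C3A, which read 10.44, 10.68 and 11.23. It was lower than control by 1.73-fold with wild-type (-0.79) and by 1.46-fold with mutant (-0.55). PNPT1, a mitochondrial RNA exonuclease, read 10.74, 10.46 and 11.24 and was lowest with mutant (-0.78). EIF2AK2, the RNA-activated kinase PKR, read 8.85, 9.68 and 9.44 with a difference of -0.83 (1.78-fold) between wild-type and mutant, in the same direction at its other 2 probe sets (-0.39 and -0.27). SHFL, an inhibitor of ribosomal frameshifting named here after its values were seen, passed 2-fold at a dimmer probe set. That probe set read 6.10, 7.18 and 5.76, a difference of 1.42 for mutant against control and -1.08 for wild-type against mutant, where the brightest gave 0.38 and 0.00. The cause was not tested for any of these.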
